A study of Mus musculus with 12 samples.

Results

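The 10 genes described here are the enteroendocrine hormone genes Cck, Gcg, Gip, Sct, Pyy and Sst, the granule protein gene Chga, and the serotonin genes Tph1, Ddc and Slc6a4. They were taken as every probe set whose only gene symbol in the array's annotation was one of these names. Each gene had 1 probe set, so the set comprised 10 of the 22690 probe sets on the Affymetrix MOE430A array and 10 of the 12394 genes that these probe sets name. The study asked how a 24 h fast changes gene expression in the small intestine, and which changes need PPARα, the nuclear receptor that fatty acids activate. RNA came from the full-length small intestine of 14 week old male mice. There were 4 groups with 3 biological replicates each, 12 arrays in all.

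Wild-type mice were 129S1/SvImJ and PPARα-null mice were 129S4/SvJae, while the labels of the fed groups give both strains only as 129Sv. In each genotype 1 group had free access to feed and the other was fasted for 24 h. The series text names the diet of all groups as AIN93M, and the study's methods describe standard laboratory chow. PPARα-null mice lack the receptor in every cell type, and the 2 genotypes are also different 129 substrains, so genotype and substrain cannot be told apart. The sources used here do not say whether a replicate is 1 mouse or a pool. The description of the wild-type fasted samples reads PPARα knockout, against their titles and strain. Ppara itself was measured at 19.9, 34.0 and 35.9 in wild-type fed and 58.7, 48.1 and 30.8 in wild-type fasted mice. In PPARα-null mice it was 6.84, 7.50 and 7.35 when fed and 13.2, 11.7 and 11.0 when fasted, below every wild-type array, so the level on the fasted arrays goes with the titles. The sources used here do not say where this probe set lies relative to the deleted part of the gene.

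Enteroendocrine cells are single hormone-secreting cells scattered through the gut epithelium. They sense nutrients at their luminal side and release peptide hormones from dense-core granules that act on the pancreas, gallbladder, stomach, gut motility and appetite. Enterochromaffin cells, a class of these cells, make serotonin from tryptophan in a hydroxylation step by TPH1 and a decarboxylation step by DDC, and the transporter SLC6A4 carries released serotonin into neighbouring epithelial cells. DDC is also made by absorptive enterocytes and SLC6A4 acts mainly there, whereas the other 8 genes are expressed in the epithelium chiefly by enteroendocrine cells.

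Values are the intensities deposited by the authors on a linear scale, and changes are differences of their log2 values. Fasted arrays read lower than fed arrays for most probe sets. The median shift was −0.32 (log2) over both genotypes, −0.28 for wild-type and −0.33 for PPARα-null mice. Fed arrays had medians of 12.7 to 12.8 and fasted arrays of 11.1 to 11.3 over all probe sets, and fed values carry 2 decimals while fasted values carry more, so feeding state and a separate normalization of the fed and fasted arrays cannot be told apart. This shift was taken off all fasting changes below, and "as deposited" marks a value that still includes it. Intensities are always as deposited. A probe set was called changed if its fold exceeded 1.3 with an unadjusted p below 0.01. A level over 20 was also required, as the mean in wild-type fed mice for fasting and as the mean log2 value over the 12 arrays for comparisons of genotype. The difference between the fasting responses was called at an adjusted p under 0.05. For each comparison, the share of all probe sets tested that was called, and its split by direction, is given as the background.

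Of the 10 genes, 9 passed the level filter and Tph1 did not. In wild-type mice 4 of these 9 were called upon fasting, beside 17.5% (10% higher, 7.43% lower) of all probe sets tested: Chga and Slc6a4 rose, and Cck and Ddc fell. In PPARα-null mice Chga and Pyy rose and Cck and Ddc fell, also 4 of 9, beside 42.2% (18.6% higher, 23.6% lower) of all. No gene was called between the fed genotypes, where 2.49% (0.928% higher, 1.56% lower) of all were, and none of the 9 had an unadjusted p under 0.05 there, the lowest being 0.0649 for Sct. In fasted mice 5 of 9 differed between the genotypes, beside 29.6% (12.6% higher, 17.0% lower) of all, with Sct, Pyy and Chga higher and Ddc and Slc6a4 lower in PPARα-null mice. The fasting response itself was called different for 1 of 9, Ddc, beside 23.4% (14.7% with a positive and 8.68% with a negative difference) of all. The median change of the 9 genes upon fasting was 0.0057 in wild-type and 0.14 in PPARα-null mice, against medians over all probe sets tested of 0.031 and −0.016. As deposited, wild-type mice had 3 genes that fell and 0 that rose, and PPARα-null mice 1 that rose and 2 that fell. Of all probe sets tested 34.2% were called as deposited in wild-type mice (2.49% higher, 31.7% lower) and 51.5% in PPARα-null mice (8.16% higher, 43.4% lower), the background for every as-deposited count below. With the shift taken off, fed and fasted arrays did not overlap for 4 of 9 genes in each genotype. Of all probe sets tested this held for 38.1% in wild-type and 63.7% in PPARα-null mice. Between fasted genotypes 6 of 9 genes did not overlap, beside 49.5% of all. In a whole intestine, fewer cells of a type and less RNA per cell cannot be told apart.

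**Figure D1:**
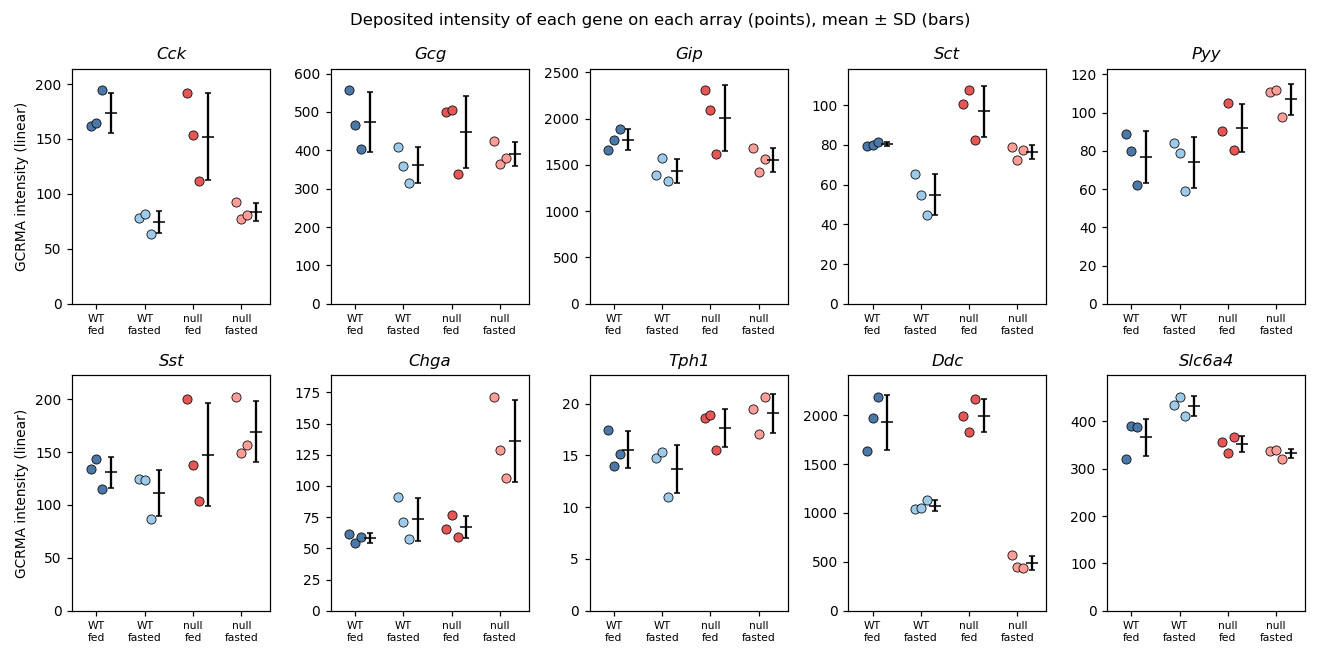
Deposited intensity on each array (linear axis from 0, 1 panel for each of the 10 genes), with wild-type fed, wild-type fasted, PPARα-null fed and PPARα-null fasted arrays side by side, 3 points in each group, beside a bar for the mean ± SD. The Ddc arrays of fasted PPARα-null mice, at 440 to 574, lie below all others, and the Chga arrays of the same mice, at 107 to 171, lie above all others.

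Ddc, aromatic L-amino acid decarboxylase, which makes serotonin from 5-hydroxytryptophan and dopamine from L-DOPA, fell upon fasting in both genotypes, and further in PPARα-null mice. In wild-type fed mice it read 1630.2, 1967 and 2187 on the 3 arrays, and in wild-type fasted mice 1041, 1046 and 1136. In PPARα-null mice the fed arrays read 1992, 1832 and 2163 and the fasted arrays 574, 451 and 440.1. The fed groups overlapped, every fasted array was below every fed array, and every PPARα-null fasted array was below every wild-type fasted array. Group means were 1928 ± 281 and 1074 ± 53.4 in wild-type mice (SD, n = 3) and 1995 ± 166 and 488 ± 74.2 in PPARα-null mice. The change upon fasting was −0.52 (SE 0.126, adjusted p = 0.0115) in wild-type mice, 1.43-fold lower. In PPARα-null mice it was −1.72 (SE 0.126, adjusted p = 3.92e-07), 3.30-fold lower. The responses differed by 1.20 (SE 0.179, adjusted p = 5.52e-04), with a 95% interval of 0.82 to 1.59. Fasted PPARα-null mice had 2.21-fold less Ddc signal than fasted wild-type mice, at −1.15 (SE 0.126, adjusted p = 2.12e-05), while the fed genotypes differed by 0.057 (95% interval −0.22 to 0.33). As deposited the changes were −0.83 and −2.04. The fall in PPARα-null mice and the difference of the responses were called in every alternative run, with differences of 1.09 to 1.32 when 1 array was left out. With the exocrine pancreas signal as a covariate, the change in wild-type mice was −0.55 (SE 0.195, adjusted p = 0.115) and was no longer called. That signal was higher on all 3 wild-type fasted arrays than on any fed array. In wild-type mice this fit can therefore hardly separate it from fasting, here and for the genes below.

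Because Ddc was the single gene of the 10 whose fasting response was called different, the 250 bases before its transcript starts are printed, from RefSeq on GRCm38.p6 (C57BL/6J sequence, not the 129 strains of the study). Both lie on the minus strand of chromosome 11, at chr11:11890409-11890658 and chr11:11898145-11898394. Capitals here and below mark matches on either strand to the E-box CANNTG, bound by basic helix-loop-helix factors such as those that specify endocrine cells, to TGACG, a half-site of the cAMP response element, or to AGGTCA, the half-site of nuclear receptors that include PPARα. The first window holds none of these letters, and the second has AGGTCA on the opposite strand, 73 bases before the start.
Ddc, first start: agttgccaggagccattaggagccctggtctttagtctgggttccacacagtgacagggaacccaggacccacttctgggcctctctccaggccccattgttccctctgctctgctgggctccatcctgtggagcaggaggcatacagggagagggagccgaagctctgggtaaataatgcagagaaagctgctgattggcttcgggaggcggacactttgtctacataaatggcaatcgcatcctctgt
Ddc, second start: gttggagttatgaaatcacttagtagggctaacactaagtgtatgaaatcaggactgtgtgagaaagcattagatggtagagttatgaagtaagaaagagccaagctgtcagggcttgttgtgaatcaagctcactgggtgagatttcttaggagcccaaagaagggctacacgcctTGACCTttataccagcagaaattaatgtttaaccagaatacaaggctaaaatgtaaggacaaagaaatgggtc

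Slc6a4, the serotonin reuptake transporter, rose upon fasting in wild-type mice. Its intensities were 320.3, 389.9 and 388 in wild-type fed and 435, 452 and 410.2 in wild-type fasted mice. In PPARα-null mice they were 356, 333 and 367 when fed and 337, 339 and 321 when fasted. The 3 wild-type fasted arrays were the highest of the 12, and the other groups overlapped as deposited. Once the shift was taken off, the PPARα-null fed and fasted arrays did not overlap, as was so for 63.7% of all probe sets tested. The rise in wild-type mice was 0.56 (SE 0.0914, adjusted p = 0.00136), 1.48-fold. In PPARα-null mice the change was 0.23 (95% interval 0.035 to 0.43, unadjusted p = 0.0246) and did not pass. Between fasted genotypes Slc6a4 was lower in PPARα-null mice, with a difference of −0.38 (SE 0.0914, adjusted p = 0.00564), a 1.3-fold difference at the edge of the fold threshold. That call ended without replicate 3 of the PPARα-null fasted group (−0.35) or without replicate 1 (−0.37) or 2 (−0.35) of the wild-type fasted group, after quantile normalization (−0.36) and with each array centred on its median (−0.34). The responses differed by 0.33, with an adjusted p of 0.0861. As deposited the wild-type rise was 0.25 and was not called, and the change in PPARα-null mice was −0.082.

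The window before the Slc6a4 start (chr11:76998347-76998596, plus strand) is shown because the gene was called in wild-type mice, and it holds both an E-box, in 2 places, and TGACG.
Slc6a4: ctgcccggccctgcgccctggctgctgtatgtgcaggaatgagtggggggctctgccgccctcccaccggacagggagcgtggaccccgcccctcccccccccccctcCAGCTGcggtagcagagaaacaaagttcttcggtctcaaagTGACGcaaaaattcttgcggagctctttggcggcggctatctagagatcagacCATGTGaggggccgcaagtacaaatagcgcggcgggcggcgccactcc

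Tph1, tryptophan hydroxylase 1, the rate-limiting enzyme of serotonin synthesis outside the brain, stayed under the level of 20 in the mean of every group. Its intensities were 17.5, 14.0 and 15.1 in wild-type fed, 14.8, 15.3 and 11.0 in wild-type fasted, 18.6, 18.9 and 15.5 in PPARα-null fed and 19.5, 17.0 and 20.7 in PPARα-null fasted mice. A single array, PPARα-null fasted replicate 3, was over 20. Fasted PPARα-null mice read higher than fasted wild-type mice on every array, by 0.49 (95% interval 0.19 to 0.79), and no call was made at this level. The change upon fasting was 0.12 in wild-type and 0.43 in PPARα-null mice.

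Around these 3 genes, 10 of 17 listed genes on the array that supply the TPH1 cofactor or store and break down serotonin passed the level filter. In wild-type mice 2 rose and 1 fell, in PPARα-null mice 2 rose and 2 fell, and the median changes were 0.037 and −0.076. Over all probe sets tested, 10% rose and 7.43% fell in wild-type mice, and 18.6% rose and 23.6% fell in PPARα-null mice. Sult1d1, a sulfotransferase of amines, went from 924 ± 138 to 1280.3 ± 271 in wild-type and from 924 ± 70.8 to 1647 ± 137 in PPARα-null mice, with rises of 0.77 and 1.15 (SE 0.153, adjusted p = 4.53e-05). Aldh2, the mitochondrial aldehyde dehydrogenase that acts after monoamine oxidase, rose by 0.58 and 0.62. Ido1, which diverts tryptophan to kynurenine, had the largest fall of the list in both genotypes, from 226 ± 13.4 to 71.5 ± 19.2 and from 167 ± 10.7 to 32.8 ± 18.2. Its changes were −1.38 in wild-type and −2.16 (SE 0.282, adjusted p = 3.84e-05) in PPARα-null mice. Ido1 is an interferon-inducible gene of several cell types. Pts, an enzyme of tetrahydrobiopterin synthesis, fell in PPARα-null mice with a change of −0.81 (SE 0.0998, adjusted p = 2.40e-05) against 0.094 in wild-type mice, and this difference of 0.90 (SE 0.141, adjusted p = 7.53e-04) passed the test. Gch1, the first enzyme of the same route, was higher in fed PPARα-null mice by 0.64 (SE 0.199, adjusted p = 0.242), and that call ended when replicates 1 or 3 of the wild-type or replicate 2 of the PPARα-null fed group were left out, at 0.40 to 0.77 over the arrays left out. Maoa, which oxidizes serotonin, was not called, at −0.10 and −0.24, nor was Aldh1a1, at −0.23 and 0.21. As deposited 0 of the 10 rose and 3 fell in wild-type mice, and 1 rose and 4 fell in PPARα-null mice. With the pancreas covariate the fall of Ido1 in wild-type mice was not called.

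**Figure D2:**
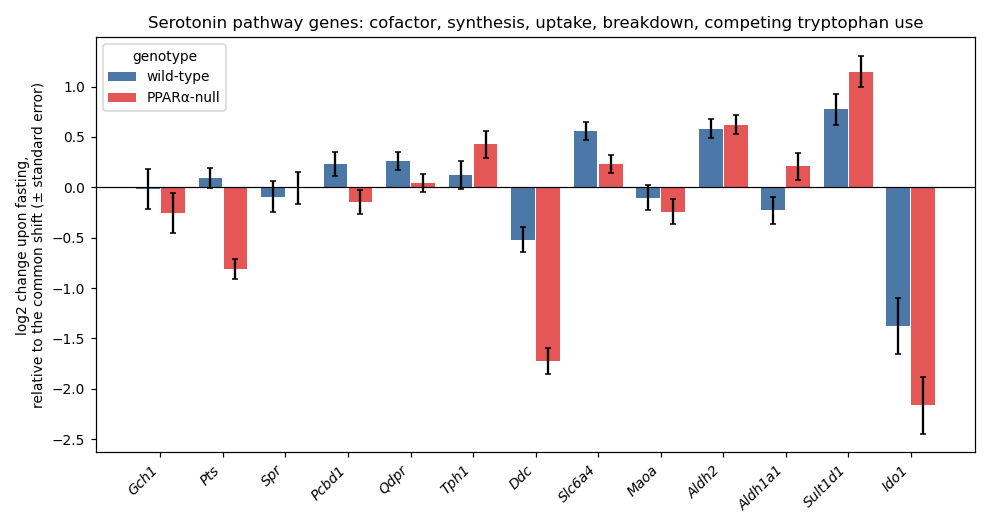
Log2 change upon fasting relative to the common shift (vertical axis, bars from 0 with whiskers of ± 1 standard error) in wild-type (blue) and PPARα-null (red) mice for Tph1, Ddc, Slc6a4 and the 10 listed cofactor and breakdown genes that passed the level filter. Several genes lie lower in PPARα-null than in wild-type mice, Ddc, Pts and Ido1 by the most. Of these Ddc (1.20) and Pts (0.90) passed the test of the difference.

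Chga, chromogranin A, a core protein of the dense-core granules of endocrine cells, rose upon fasting in both genotypes. Wild-type arrays read 61.6, 54.1 and 59.4 when fed and 91.1, 71.2 and 57.3 when fasted. PPARα-null arrays read 65.3, 76.7 and 59.1 when fed and 171, 129 and 107 when fasted. Every PPARα-null fasted array was above all other arrays, while the wild-type fed and fasted arrays overlapped as deposited and did not once the shift was taken off. The rise was 0.62 (SE 0.183, adjusted p = 0.0282) in wild-type mice and 1.31 (SE 0.183, adjusted p = 6.37e-05), 2.49-fold, in PPARα-null mice. Fasted PPARα-null mice had 1.85-fold more Chga than fasted wild-type mice, at 0.89 (SE 0.183, adjusted p = 0.00203). The difference of the responses was −0.70 (95% interval −1.26 to −0.14) with an adjusted p of 0.0699, which did not pass. It did pass without PPARα-null fasted replicate 3 (−0.86) or wild-type fasted replicate 1 (−0.87), after quantile normalization (−0.76) and with each array centred on its median (−0.78). The wild-type rise was 0.30 as deposited and was not called. It was also not called when replicate 2 (0.57) or 3 (0.63) of the wild-type fed group, or replicate 1 (0.45) or 2 (0.63) of the wild-type fasted group, was left out. With the exocrine pancreas signal as a covariate the wild-type rise was 0.51 with an adjusted p of 0.297, again without a call, while that in PPARα-null mice was 1.23 and called. As deposited the rise in PPARα-null mice was 0.999.

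The Chga window (chr12:102554691-102554940, plus strand) is shown because Chga had the largest rise of the 10 genes in both genotypes, and it holds 3 E-boxes and 1 TGACG, 44 bases before the start.
Chga: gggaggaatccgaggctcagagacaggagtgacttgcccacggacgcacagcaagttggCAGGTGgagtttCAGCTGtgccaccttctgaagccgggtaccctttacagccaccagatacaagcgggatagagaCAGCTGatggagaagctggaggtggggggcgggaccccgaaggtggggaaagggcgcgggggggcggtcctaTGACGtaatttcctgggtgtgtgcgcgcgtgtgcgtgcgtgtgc

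Of 25 other granule protein and prohormone processing genes on the array, 5 passed the level filter. In wild-type mice 0 of 5 were called, beside 17.5% of all probe sets, and in PPARα-null mice 2 of 5 rose, beside 18.6% of all. Of these, Chgb, chromogranin B, rose by 0.44 (SE 0.134, adjusted p = 0.013), and Scg2, secretogranin II, by 0.52 (SE 0.166, adjusted p = 0.018). Chgb read 1187 ± 277 when fed and 1278 ± 109 when fasted, and Scg2 71.0 ± 6.45 and 81.5 ± 3.82. As deposited neither was called, and with the pancreas covariate both calls were also lost. Without the shift taken off, 0 of the 5 genes rose and 2 fell in wild-type mice, and 0 rose and 1 fell in PPARα-null mice. Chgb was called in 8 and Scg2 in 4 of the 12 fits that left out 1 array, with values of 0.31 to 0.63 and 0.44 to 0.57. The calls of Chgb ended without PPARα-null fed replicates 2 or 3 and without PPARα-null fasted replicates 1 or 3. Those of Scg2 ended when any 1 PPARα-null array, replicate 3 of the wild-type fed or replicate 2 of the wild-type fasted group was left out. Cpe, the carboxypeptidase that trims prohormones, was not called, with 0.21 and 0.28, and Pam, which amidates peptide hormones, had −0.28 and 0.18.

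Cck, cholecystokinin, the hormone of proximal I cells that contracts the gallbladder and stimulates pancreatic enzyme secretion, fell upon fasting in both genotypes. In wild-type mice it read 162, 165 and 195 when fed and 78.1, 81.8 and 63.5 when fasted. In PPARα-null mice it read 192, 153 and 112 when fed and 92.8, 76.8 and 80.6 when fasted. Every fasted array was below every fed array as deposited. The change was −0.91 (SE 0.17, adjusted p = 0.00279) in wild-type mice, 1.88-fold, and it was called in every alternative run. In PPARα-null mice it was −0.52 (SE 0.17, adjusted p = 0.019), 1.44-fold, with groups that overlapped once the shift was taken off. This change ranged from −0.73 to −0.34 when 1 array was left out, and was not called when replicates 1 or 2 of the wild-type fed, PPARα-null fed or wild-type fasted group, or replicates 2 or 3 of the PPARα-null fasted group, were left out. It was called in 12 of 25 alternatives, and the call was also lost after quantile normalization (−0.46), with each array centred on its median (−0.46), with only the groups compared (−0.52) and with the pancreas covariate (−0.56). As deposited the changes were −1.23 and −0.84. The responses differed by −0.39 (95% interval −0.91 to 0.13, adjusted p = 0.268), and the fasted genotypes by 0.17 (95% interval −0.20 to 0.53). Neither passed the test.

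The Cck window (chr9:121495695-121495944, minus strand) is shown because Cck was the hormone gene that fell, and it holds 3 E-boxes and 1 TGACG on the opposite strand, 47 bases before the start.
Cck: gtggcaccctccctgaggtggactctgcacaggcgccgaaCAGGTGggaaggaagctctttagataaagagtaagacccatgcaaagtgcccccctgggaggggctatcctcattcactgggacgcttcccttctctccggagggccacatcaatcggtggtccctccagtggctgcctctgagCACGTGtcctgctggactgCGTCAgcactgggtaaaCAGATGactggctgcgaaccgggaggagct

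Pyy, peptide YY, a satiety hormone of distal L cells, was higher in fasted PPARα-null than in fasted wild-type mice. Its intensities were 88.6, 79.8 and 61.9 in wild-type fed and 84.3, 78.8 and 58.8 in wild-type fasted mice. In PPARα-null mice they were 90.2, 105 and 80.3 when fed and 111, 112 and 97.8 when fasted. The PPARα-null fasted arrays were all above the wild-type fasted arrays and overlapped the PPARα-null fed arrays as deposited. Fasting changed Pyy by 0.54 (SE 0.158, adjusted p = 0.0112) in PPARα-null mice. In wild-type mice the change was 0.26 (95% interval −0.083 to 0.60) and was not called. The fasted genotypes differed by 0.55 (SE 0.158, adjusted p = 0.0156), and the responses by −0.28 (adjusted p = 0.405). The rise in PPARα-null mice was 0.22 as deposited and not called. It also lost its call without PPARα-null fed replicate 1 (0.53), PPARα-null fed replicate 3 (0.45), PPARα-null fasted replicate 1 (0.51) or PPARα-null fasted replicate 2 (0.51), and with the pancreas covariate (0.52). The genotype difference lost its call without PPARα-null fasted replicate 1 (0.52), PPARα-null fasted replicate 2 (0.51) or wild-type fasted replicate 3 (0.39), and with array weights (0.47).

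Sct, secretin, which S cells release upon acid and which drives bicarbonate secretion, was also higher in fasted PPARα-null mice. Wild-type arrays read 79.6, 80.0 and 81.3 when fed and 65.4, 54.7 and 44.8 when fasted. PPARα-null arrays read 100.3, 108 and 82.6 when fed and 79.0, 72.3 and 77.3 when fasted. The genotypes did not overlap in either feeding state. Sct was the 1 gene of 9 without overlap between the fed genotypes, where 16.5% of all probe sets tested had none. Between the fasted genotypes 49.5% had none. The fasted genotypes differed by 0.49 (SE 0.129, adjusted p = 0.00981), 1.40-fold, a call that ended without wild-type fasted replicate 3 (0.35). The fed genotypes differed by 0.26 (95% interval −0.019 to 0.54), which was not called. Upon fasting Sct changed by −0.25 (95% interval −0.53 to 0.033) in wild-type and −0.022 (95% interval −0.30 to 0.26) in PPARα-null mice, with no call. As deposited the wild-type value was −0.56, which was called, and without wild-type fasted replicate 1 it was −0.38, also called.

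Sst, somatostatin, the inhibitory hormone of D cells, read 134, 143 and 115 in wild-type fed and 124, 123 and 86.4 in wild-type fasted mice. In PPARα-null mice it read 200.4, 138 and 104 when fed and 202, 149 and 157 when fasted. The fasted genotypes did not overlap, as was so for 49.5% of all probe sets tested. They differed by 0.61 (95% interval 0.15 to 1.08), with an unadjusted p of 0.0139 that missed the threshold for a call. The change upon fasting was 0.068 (95% interval −0.40 to 0.53) in wild-type and 0.55 (95% interval 0.089 to 1.02) in PPARα-null mice, neither called. Without PPARα-null fed replicate 1, the highest fed array, the change in PPARα-null mice was 0.80 and was called. That change was called in 3 of 25 alternatives, the others being the adjusted p rule and the replicate block. The difference between the fasted genotypes was called in 7 of 24 alternatives. Among these were the fits without PPARα-null fed replicate 1 or 3 and with each array centred on its median (0.65). The others were the adjusted p rule, trended variances, only the groups compared and the replicate block.

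The incretin genes did not pass any test. Gip, glucose-dependent insulinotropic peptide of K cells, read 1659.8, 1773 and 1887 in wild-type fed and 1393, 1577 and 1328 in wild-type fasted mice. PPARα-null arrays read 2309, 2096 and 1614 when fed and 1685, 1423 and 1558 when fasted. Its change upon fasting was 0.0057 (95% interval −0.27 to 0.28) in wild-type and −0.039 (95% interval −0.31 to 0.24) in PPARα-null mice. These intervals lie within the 1.3-fold threshold only with the shift taken off, and they leave out the uncertainty of the shift. As deposited every wild-type fasted array was below every wild-type fed array. Gcg, proglucagon, which L cells process to glucagon-like peptides, read 557, 465 and 402 in wild-type fed and 407, 360.2 and 314 in wild-type fasted mice. PPARα-null arrays read 499, 504 and 338 when fed and 425, 365 and 380.4 when fasted. The changes were −0.077 (95% interval −0.43 to 0.28) and 0.14 (95% interval −0.21 to 0.49), so a change of 1.3-fold was not excluded by either interval. As deposited they were −0.39 and −0.18, and those of Gip were −0.31 and −0.35, also without a call.

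**Figure D3:**
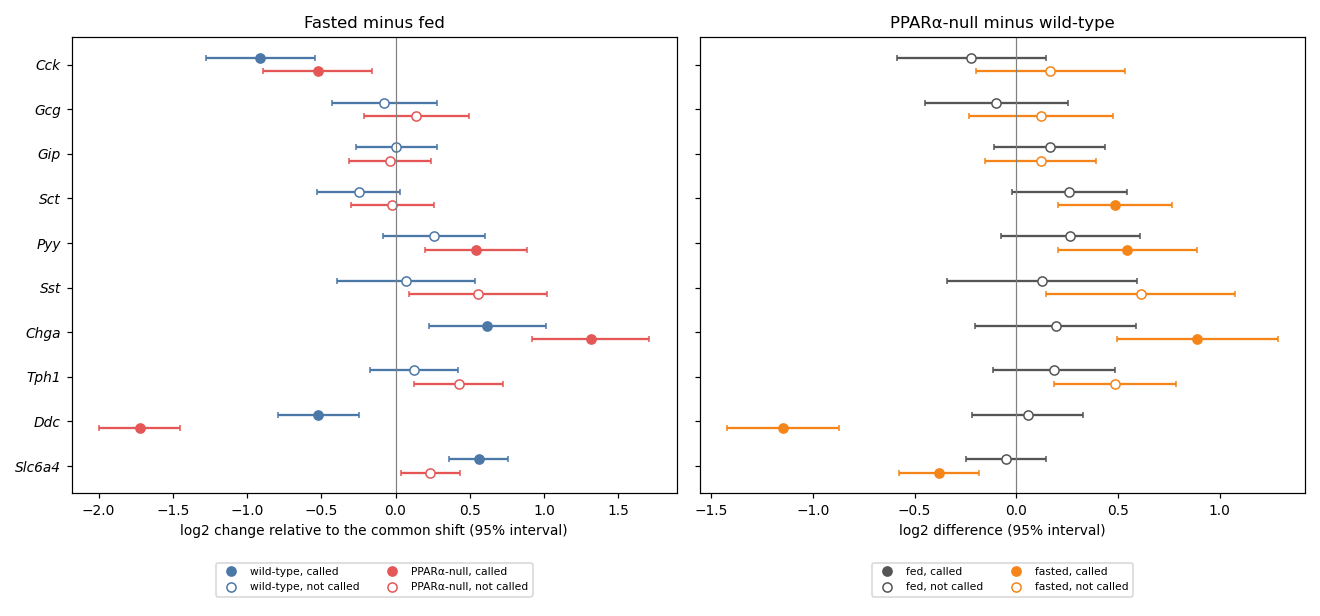
Log2 changes of the 10 genes with 95% intervals: fasted minus fed relative to the common shift in wild-type and PPARα-null mice on the left, and PPARα-null minus wild-type in fed and fasted mice on the right, with filled points for called values. Ddc in PPARα-null mice (−1.72) and Chga in PPARα-null mice (1.31) lie furthest from 0 on the left, and every value for the fed genotypes on the right has an interval that includes 0.

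Other hormone genes of the gut were read from a list of 21 on the array, of which 6 passed the level filter. In wild-type mice 1 rose and 0 fell, and in PPARα-null mice 2 rose and 0 fell, beside 10% and 18.6% of all probe sets that rose. These were the guanylin peptides, which set fluid secretion through guanylate cyclase C and are made by several epithelial cell types. Guca2b, uroguanylin, went from 5396 ± 277 to 6152 ± 663 in wild-type and from 5526 ± 425 to 9249.6 ± 396 in PPARα-null mice. It rose by 0.50 (SE 0.0968, adjusted p = 0.00346) and by 1.06 (SE 0.0968, adjusted p = 2.16e-06), and the responses differed by −0.56 (SE 0.137, adjusted p = 0.0112). The wild-type rise of Guca2b was not called after quantile normalization. Guca2a, guanylin, rose in PPARα-null mice by 0.74 (SE 0.11, adjusted p = 1.10e-04), with 0.35 in wild-type mice. Nts, neurotensin of distal N cells, was not called upon fasting (−0.27 and 0.15) and was higher in fasted PPARα-null than in fasted wild-type mice by 0.56 (SE 0.156, adjusted p = 0.0133). That call ended without replicate 1 of the PPARα-null or 3 of the wild-type fasted group, with 0.44 to 0.66 over the arrays left out. As deposited 0 of the 6 rose and 1 fell in wild-type mice, and 2 rose in PPARα-null mice.

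Transcription factors that set the secretory and endocrine lineages were represented by 22 genes on the array, of which 5 passed the level filter. In wild-type mice 0 of 5 were called, and in PPARα-null mice 0 rose and 3 fell, Atoh1, Foxa1 and Sox4, beside 17.5% of all probe sets called in wild-type mice and 23.6% that fell in PPARα-null mice. Atoh1, which commits progenitors to all secretory lineages, went from 148 ± 16.0 to 103 ± 14.2 in wild-type mice. In PPARα-null mice it went from 147 ± 30.0 to 19.4 ± 10.4, a change of −2.72 (SE 0.286, adjusted p = 6.82e-06), against −0.22 in wild-type mice. The responses of Atoh1 differed by 2.50 (SE 0.404, adjusted p = 9.54e-04). Foxa1, a factor of goblet and L cell differentiation, fell in PPARα-null mice, with a change of −0.94 (SE 0.11, adjusted p = 1.50e-05), and the responses differed by 0.67 (SE 0.155, adjusted p = 0.0084). Sox4, a factor of progenitors, fell with a change of −0.83 (SE 0.17, adjusted p = 0.00119), and its difference of 0.68 did not pass. Its fall lost the call when PPARα-null fasted replicates 1 and 3 were left out together and with the pancreas covariate. Neurod1, at 17.1 ± 5.27 in wild-type fed mice, did not pass the level filter and was not tested. It read 18.8 ± 3.07 in wild-type fasted mice, and 17.1 ± 2.81 in fed and 29.5 ± 2.87 in fasted PPARα-null mice. Its changes were thus upward, 0.48 in wild-type and 1.11 in PPARα-null mice, without a call. Gata4 and Mlxipl were not called, with −0.0025 and −0.086 in wild-type and −0.0051 and −0.27 in PPARα-null mice. As deposited 2 fell in wild-type and 4 in PPARα-null mice.

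Of 15 nutrient sensor genes of enteroendocrine cells on the array, 4 passed the level filter. In wild-type mice 1 rose and 0 fell, and in PPARα-null mice 2 rose and 0 fell, beside 10% and 18.6% of all probe sets that rose. Adcy6, an adenylate cyclase, rose in wild-type mice by 0.43 (SE 0.107, adjusted p = 0.0125), a call that ended without wild-type fed replicate 1, with 0.36 to 0.51 over the arrays left out, and with the pancreas covariate. The transporters Slc5a1, which couples glucose to sodium, and Slc15a1, which takes up dipeptides and tripeptides, rose in PPARα-null mice by 0.50 and 0.54 (SE 0.114, adjusted p = 0.00148). Both are abundant in enterocytes. The call of Slc5a1 ended without PPARα-null fed replicate 1, with 0.39 to 0.60 over the arrays left out, and after quantile normalization. The response of Slc15a1 differed between the genotypes by −0.58 (SE 0.161, adjusted p = 0.0215), which did not pass without PPARα-null fasted replicate 3 and ranged from −0.72 to −0.51 over the arrays left out. Gnas was not called. As deposited none of the 3 rises was called, and 1 of the 4 genes fell in wild-type and 0 in PPARα-null mice.

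Receptors of the hormones and of serotonin, 29 genes on the array, had no group mean over 20, the highest being 15.7, so none was tested. Of 15 peptidases that degrade the hormones 12 passed the level filter, of which 1 rose and 0 fell in wild-type and 3 rose and 0 fell in PPARα-null mice, beside 10% and 18.6% of all probe sets that rose. Dpp4, which inactivates the incretins, was not called, at 0.094 in wild-type and 0.16 in PPARα-null mice, nor were Anpep and Enpep. Xpnpep2, a membrane aminopeptidase P, rose in wild-type mice by 0.49 and in PPARα-null mice by 1.3 (SE 0.14, adjusted p = 8.64e-06), from 252 ± 41.3 to 497 ± 70.6. Its responses differed by −0.81 (SE 0.199, adjusted p = 0.0116), which did not pass when PPARα-null fasted replicates 1 and 3 were left out together. The wild-type rise was not called when replicates 2 or 3 of the wild-type fed or 1 or 3 of the wild-type fasted group were left out, with 0.43 to 0.60 over the arrays left out, nor with the pancreas covariate. Mep1a and Ace, a meprin subunit and angiotensin-converting enzyme, rose in PPARα-null mice alone by the call rule, by 0.67 and 0.49, and the differences of their responses (−0.24 and −0.32) did not pass the test. Both calls ended when PPARα-null fasted replicates 1 and 3 were left out together, that of Mep1a also with the pancreas covariate and that of Ace after quantile normalization. As deposited 0 of 12 rose and 2 fell in wild-type mice, and 1 rose and 3 fell in PPARα-null mice.

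Several of the 10 genes are also made outside enteroendocrine cells, so marker genes of those cells were read on the same arrays. The exocrine pancreas list held 17 genes on the array, of which Zg16, also made by goblet cells, read 8274 to 10632 on the 12 arrays and was not called. The 16 others summed to 673 to 2309 in wild-type fed and 760.0 to 1320 in PPARα-null fed mice. They summed to 11313 to 23210 in wild-type fasted mice, and to 27481, 685 and 28203 on the 3 PPARα-null fasted arrays. Of 11 genes of the list tested, 10 rose in wild-type and 6 in PPARα-null mice, beside 10% and 18.6% of all probe sets, with median changes of 5.29 and 4.25, and the study's methods state that pancreatic tissue was removed. PPARα-null fasted replicate 2, where the sum without Zg16 lay within the range of the fed arrays, had 451 for Ddc and 129 for Chga, inside the range of the other replicates of its group. When replicates 1 and 3 were left out together, the change upon fasting in PPARα-null mice was −1.84 for Ddc and 1.26 for Chga, both still called, and Cck (−0.65) and Pyy (0.60) were not. In that fit the single array left in the group is assumed to vary like the other groups.

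Islets also make Gcg, Sst and Chga. The islet markers Ins2 and Ppy were at most 5.26 and 4.48 on the 12 arrays and Iapp was 14.7 to 36.6. Of 7 islet genes 2 were over 20 in any group mean, and the highest group mean on this list was 1175. The 7 genes summed to 1059 to 1512 in wild-type fed and 965 to 1161 in wild-type fasted mice. In PPARα-null mice the sums were 774 to 1144 when fed and 1029 to 1218 when fasted. Mast cells also make serotonin through Tph1, and 0 of 12 mast cell genes were over 20, with Mcpt1 at most 13.0 and Cpa3 at most 8.23. Of 21 neuronal and glial genes 3 were over 20 in fed mice, among them Vip at 53.7 to 124, and their sum was 380.1 to 451 in wild-type fed and 315 to 363 in wild-type fasted mice, and 356 to 400.1 and 293 to 364 in PPARα-null mice. Smooth muscle genes summed to 6601 to 7676 in wild-type fed and 2875 to 4702 in wild-type fasted mice, and to 6135 to 6677 and 4331 to 4581 in fed and fasted PPARα-null mice. Of 9 tested, 6 fell in wild-type and 1 in PPARα-null mice, beside 7.43% and 23.6% of all probe sets. Enterocyte genes summed to 71828 to 81485 over all arrays, with 2 of 13 called upon fasting in wild-type and 4 of 13 in PPARα-null mice, all higher, beside 10% and 18.6% of all. The part of the muscle, nerve and enterocyte shares in the changes of the 10 genes was not tested.

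On some of the arrays most of the 10 genes also deviated together. For the 8 genes other than Ddc and Slc6a4, all 8 lay below their group mean on wild-type fasted replicate 3 and on PPARα-null fed replicate 3, and 0 of 8 on PPARα-null fasted replicate 1. The deviations were −0.35 to −0.11 on the first of these arrays, −0.45 to −0.17 on the second and 0.036 to 0.36 on the third. Over all probe sets past the level filter, the median deviations on these 3 arrays were −0.013, −0.0028 and −0.011. These 3 arrays are the extremes. On the others 1 to 7 of the 8 genes lay below, with 3, 5 and 4 on wild-type fed replicates 1, 2 and 3. Wild-type fasted replicate 3 was the lowest array of its group for Pyy, Sct and Chga, which were called between fasted genotypes. Without it the differences were 0.39, 0.35 and 0.73, and of these Chga kept its call. On PPARα-null fed replicate 3 both Ddc and Slc6a4 had the highest value of their group, and on wild-type fasted replicate 3 Ddc had the highest and Slc6a4 the lowest.

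**Figure D4:**
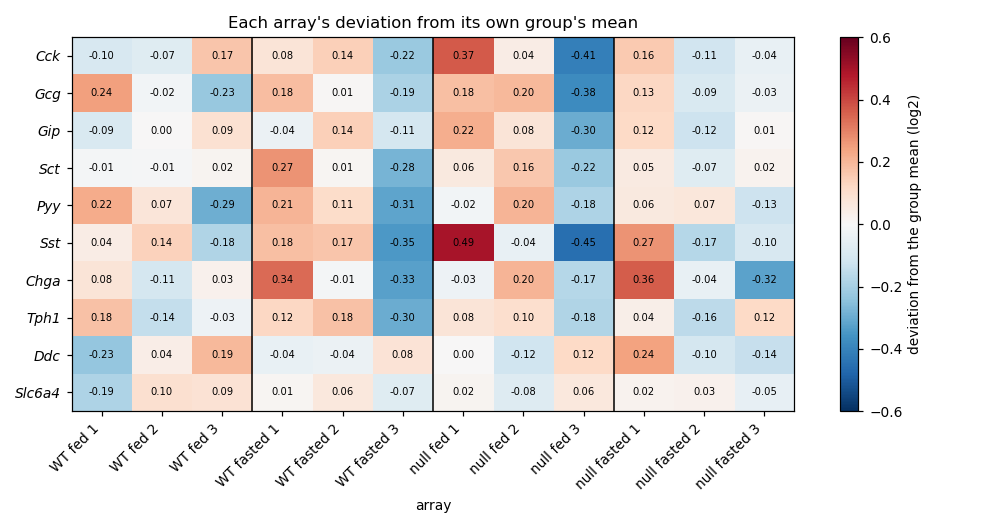
Deviation of each of the 10 genes from its group mean on each of the 12 arrays (log2 scale, colour and printed value), with arrays in columns by group and replicate. The columns of wild-type fasted replicate 3 and PPARα-null fed replicate 3 are below 0 for the 8 genes other than Ddc and Slc6a4, and PPARα-null fasted replicate 1 is above 0 for all 10.

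The genes whose log2 values over the 12 arrays were most like those of a called member are given as a description, since the points share the 4 groups and their arrays. Ddc was most like Pdia4 (Pearson r = 0.99), Stk16 (0.99) and Kat6a (0.99). Chga was most like Gp1bb (r = 0.98), Tsc22d4 (0.97) and Med15 (0.96). Slc6a4 was most like Wipf1 (r = 0.94), Mgst1 (0.93) and Ptdss2 (0.93), Cck like Plekha3 (0.93), Nadk (0.93) and Tmpo (0.92), and Pyy like Neu1, Cdk2ap1 and Nat9 (0.92, 0.91 and 0.91). No other of the 10 genes was among those named for these 5.

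The 10 genes had 13 windows of 250 bases before their RefSeq starts, of which those of Pyy overlap, and 9 held the E-box CANNTG, against 66.2% of 32851 such windows of all genes. TGACG was found in 6 of 13, in the windows of Cck, Sst, Chga, Tph1 and Slc6a4, against 17.8% of all, and AGGTCA in 3 of 13, against 14.0%. The DR1 element, a direct repeat of AGGTCA with 1 base between, the form that PPARα binds with RXR, was in 0 of 13 windows and 0.0335% of all. These matches are letters in a short window and say nothing about binding.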

How the data were processed

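The series holds 12 Affymetrix MOE430A arrays of mouse small intestine, 3 per group. Intensities were deposited by the authors on the linear scale, made with GCRMA (2.20 per the labels). Raw scans were not used here. Groups were taken from sample titles.

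Intensities were taken to log2, and a linear model with a mean for each group was fitted over the 12 arrays (lmFit and eBayes of limma 3.58.1, R 4.3.3). One constant, the median fasted minus fed difference over probe sets with a wild-type fed mean over 20, was taken off all fasted arrays. Comparisons of genotype and the difference of the responses do not depend on it. The thresholds for a call (fold and unadjusted p) and, for fasting, the level filter follow the study's methods. The filter on the mean log2 value over all arrays, used for comparisons of genotype and the difference of the responses, is not the study's. P-values are two-sided and were adjusted by Benjamini-Hochberg across every probe set past the level filter. Where a listed gene had several probe sets, the one with the highest mean log2 value was used. The fitting steps were tested on simulated data.

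Named genes are the 10 members, Ppara, and from each list up to 3 called rises and 3 called falls per genotype, every gene called for the difference and up to 2 of the most abundant uncalled genes. The most similar genes were the 3 with the highest Pearson r. A few other genes were chosen after their values were seen. The members and lists were chosen with earlier results of these data known. Alternatives were no shift, quantile or median scaling, other level filters, an adjusted p rule, trended variances, array weights, only the groups compared, a replicate block, a pancreas covariate and arrays left out. Arrays of a group correlated at 0.984 to 0.994, so none was a duplicate, and the number of arrays limits the precision. Promoter sequences are RefSeq's on GRCm38.p6, and all 10 genes matched.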

Additional observations from a re-analysis of the deposited data

Results flagged for a closer look

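The fasting response of Ddc differed between the genotypes by 1.20 on the log2 scale (wild-type minus PPARα-null, SE 0.179, adjusted p = 5.52e-04). The gene fell in both, from 1928 ± 281 to 1074 ± 53.4 in wild-type and from 1995 ± 166 to 488 ± 74.2 in PPARα-null mice (SD, n = 3), and it was picked out because a test of the difference itself passed. Over the arrays left out in turn the difference was 1.09 to 1.32.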

How the results depend on the processing

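Of 1190 values of the 10 genes under the alternatives, 1083 kept their direction and their side of the threshold, 39 changed sign without a call in either fit, 47 lost a call, 21 gained one and 0 called values changed sign. In wild-type mice 4 genes were called upon fasting, 3 to 4 with 1 array left out and 2 with the pancreas signal as a covariate. In PPARα-null mice 4 were called, 2 to 4 with 1 array left out, and 2 with a level over 100, with the pancreas covariate or without PPARα-null fasted replicates 1 and 3 together. Between fasted genotypes 5 were called, 3 to 6 with 1 array left out, and 2 with a level over 100 or without those 2 arrays. No gene was called between fed genotypes in any alternative. For the difference of the responses 1 was called, 1 to 2 with 1 array left out, 2 after quantile normalization or centring each array on its median, and 3 at an adjusted p under 0.1. The cause of these changes was not tested, apart from a level over 100, which removes the dimmer genes from the test. Without the shift taken off, 34.2% of all probe sets tested were called in wild-type mice, 233 higher and 2971 lower, against 940 and 696 with it, and in PPARα-null mice 765 and 4064 against 1747 and 2208. With the pancreas covariate 10.8% were called in wild-type and 34.7% in PPARα-null mice, and between fed genotypes 0.585% at an adjusted p under 0.05. With a level over 100 the share was 38.7% upon fasting in PPARα-null mice and 25.4% between fasted genotypes. For the difference of the responses it was 23.0% after quantile normalization, 23.1% after median centring and 31.3% at an adjusted p under 0.1. With 1 array left out it was 15.2% to 18.9% upon fasting in wild-type and 39.0% to 42.6% in PPARα-null mice. Between fasted genotypes it was then 26.7% to 29.8%, and for the difference 19.6% to 22.3%. Without PPARα-null fasted replicates 1 and 3 the responses of 14.1% differed.

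The sample titles number the replicates, and whether these numbers pair the samples is not known. Same-numbered arrays had deviations that correlated at −0.15 to 0.22, over 0.1 in 5 of 18 pairs, which does not decide it. With the replicate number as a block, 2 genes (Ddc and Chga) were called for the difference of the responses, beside 22.4% of all. Upon fasting 5 were called in PPARα-null and 4 in wild-type mice, beside 42.2% and 17.4%, and between fasted genotypes 6, beside 29.3%. Sst was among the 5 and the 6, unlike in the main fit. Depth has no measure on these arrays. Tph1 and the receptors, all under 20, are limited by signal over background.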
